A study of Mus musculus with 10 samples.

Results

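The genes that build cholesterol and fatty acids were followed in O9-1 cells, a mouse cranial neural crest cell line, after loss of Kat5 or Ep400. They were picked by gene symbol from the raw count table, which held all 37 of them among 43346 genes. The list comprised 18 sterol enzymes from Acat2 to Dhcr7, 7 regulators and carriers (Insig1, Insig2, Srebf1, Srebf2, Scap, Stard4 and Lpin1) and 12 fatty acid enzymes (Acly, Acss2, Me1, Acaca, Acacb, Fasn, Scd1, Scd2, Elovl5, Elovl6, Fads1 and Fads2). Poly-A RNA was sequenced from 4 wildtype samples labelled as biological replicates, from 3 Kat5 ko clones and from 3 Ep400 ko clones, which are called WT/1 to WT/4, Kat5/1 to Kat5/3 and Ep400/1 to Ep400/3. Kat5 (also named Tip60) is the acetyltransferase and Ep400 the ATP-dependent remodeler of a chromatin complex that acetylates histones and exchanges H2A.Z. All cells were grown on Matrigel in medium that held fetal calf serum, was conditioned on feeder cells and was supplemented with FGF2. No group received a further treatment apart from the steps of editing. Each ko library came from 1 clone made by CRISPR/Cas9 editing of the tetraploid line. For editing, cells were transfected with a Cas9 plasmid and a plasmid for a fluorescent protein, sorted, and grown into clones from individual cells. No such steps are described for the wildtype samples, so transfection, sorting and cloning cannot be told apart from the loss of the gene. The Kat5 ko clones and Ep400/1 carried frameshifts in every allele, Ep400/3 kept an in-frame deletion in a single allele, and Ep400/2 had in-frame deletions at the ATP binding site in all alleles but one.

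Cells make cholesterol from acetyl-CoA through mevalonate, the isoprenoid farnesyl pyrophosphate, squalene and lanosterol, and they make fatty acids from the same acetyl-CoA through malonyl-CoA. Both branches are transcribed under the SREBP factors (Srebf2 mainly for sterol genes, Srebf1 mainly for fatty acid genes). Scap carries the SREBP precursors from the endoplasmic reticulum to the Golgi for cleavage when sterols are scarce, and the Insig proteins hold the pair back when sterols are plentiful. Insig1 is itself an SREBP target, so its transcript is widely read as a gauge of the pathway. In the embryonic face, cholesterol is needed among other things for Hedgehog signalling.

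SREBPs are known to act on promoters together with the CCAAT-binding factor NF-Y and with Sp1, which binds GC boxes. RefSeq promoter windows (build GRCm38.p6, 250 bases before to 50 bases after a start) were held for 30 of the 37 genes, and for these the letters CCAAT (the NF-Y box), GGGCGG (the GC box), TCACNCCAC (a sterol element) and CACGTG (an E-box) were searched on both strands, a gene counting when any of its windows held a match. Fdps, Fdft1, Sqle, Stard4, Scd1, Scd2 and Fads1 had no window and were not searched. CCAAT was found for 14 of 15 sterol enzyme genes with a window (93.3%), for 4 of 6 regulators and carriers (66.7%) and for 6 of 9 fatty acid genes (66.7%), against 41.1% of all 27025 genes with a window. GGGCGG was found for 14 of 15 sterol enzyme genes (93.3%), 5 of 6 regulators and carriers (83.3%) and 4 of 9 fatty acid genes (44.4%), against 38.2% of all genes. TCACNCCAC was found in 1 of the 30 genes searched, Hmgcs1, and in 1.44% of all genes, and CACGTG in 6 of 30 (20%) against 8.09% of all genes. Genes with more windows have more chances of a match. Counted by window, CCAAT was found in 14 of 18 windows of sterol enzyme genes (77.8%) and 5 of 11 of regulators and carriers (45.5%). It was found in 6 of 10 windows of fatty acid genes, against 37.4% of all 32851 windows. GGGCGG was found in 27 of 39 windows of the list (69.2%), against 35.7%. The background was not limited to genes expressed in these cells, and the shares were not tested. The windows of 5 genes are printed because their transcripts carry the contrasts described further on. These are Hmgcs1 and Lss as sterol enzymes, Insig1 as the feedback gene, and Acss2 and Fasn of the fatty acid branch. Acss2 had the deepest drop in the Kat5 ko clones, and Fasn was 1 of the fatty acid genes without a drop there. The windows lie at chr13:119690101-119690400 (Hmgcs1, plus strand), chr10:76531355-76531654 (Lss, plus strand), chr5:28071162-28071461 (Insig1, plus strand), chr2:155517793-155518092 (Acss2, plus strand) and chr11:120824498-120824797 (Fasn, minus strand). Each runs 5′ to 3′ along the gene, and capitals mark CCAAT on either strand (read as ATTGG when on the other strand) and, in Hmgcs1, the TCACNCCAC match.
Hmgcs1: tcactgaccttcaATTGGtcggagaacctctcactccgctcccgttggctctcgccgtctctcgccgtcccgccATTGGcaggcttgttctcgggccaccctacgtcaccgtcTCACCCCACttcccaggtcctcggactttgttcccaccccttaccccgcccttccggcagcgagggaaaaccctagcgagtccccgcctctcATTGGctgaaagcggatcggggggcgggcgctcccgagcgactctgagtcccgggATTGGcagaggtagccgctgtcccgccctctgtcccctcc
Lss: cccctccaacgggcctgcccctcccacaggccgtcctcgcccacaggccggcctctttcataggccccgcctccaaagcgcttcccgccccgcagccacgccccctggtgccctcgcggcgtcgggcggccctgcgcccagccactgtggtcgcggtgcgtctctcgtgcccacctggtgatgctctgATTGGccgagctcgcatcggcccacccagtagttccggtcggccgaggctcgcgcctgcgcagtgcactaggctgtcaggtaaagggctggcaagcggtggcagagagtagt
Insig1: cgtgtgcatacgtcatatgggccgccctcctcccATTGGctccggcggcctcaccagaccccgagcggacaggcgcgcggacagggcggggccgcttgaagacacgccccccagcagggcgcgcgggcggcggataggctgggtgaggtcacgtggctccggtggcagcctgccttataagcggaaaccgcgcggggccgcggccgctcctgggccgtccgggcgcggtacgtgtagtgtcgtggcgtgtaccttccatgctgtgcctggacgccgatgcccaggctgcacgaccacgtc
Acss2: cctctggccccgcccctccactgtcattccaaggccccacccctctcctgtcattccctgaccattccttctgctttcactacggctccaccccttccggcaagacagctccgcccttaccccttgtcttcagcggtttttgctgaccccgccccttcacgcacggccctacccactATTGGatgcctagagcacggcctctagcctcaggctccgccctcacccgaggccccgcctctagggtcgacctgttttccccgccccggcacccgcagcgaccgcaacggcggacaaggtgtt
Fasn: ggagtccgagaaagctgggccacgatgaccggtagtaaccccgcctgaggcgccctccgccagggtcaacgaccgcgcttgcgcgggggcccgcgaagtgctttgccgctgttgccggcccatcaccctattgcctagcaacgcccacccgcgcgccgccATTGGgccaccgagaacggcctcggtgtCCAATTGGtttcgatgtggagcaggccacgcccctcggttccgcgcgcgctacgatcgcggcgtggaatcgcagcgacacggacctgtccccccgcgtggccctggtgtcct
The Hmgcs1 window held 4 CCAAT matches, at -237, -176, -45 and 11 from the start, with the TCACNCCAC match at -137. In Lss the CCAAT match lay at -62, in Insig1 at -216 and in Acss2 at -73. The 3 matches of the Fasn window included a pair that overlap on opposite strands (the capital run CCAATTGG). These are matches of letters and were not tested as binding sites.

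The libraries held 30968945 to 48301792 counts, and the 37 genes took 0.446% to 0.450% of them in the Kat5 ko clones, 0.621% to 0.966% in wildtype cells, and 0.474%, 1.29% and 0.870% in Ep400/1, Ep400/2 and Ep400/3. Levels are given as CPM, that is counts scaled to a common library size with TMM factors, which does not correct for gene length. The targeted transcripts matched the labels: Kat5 went from 53.8 ± 3.98 CPM (SD, n = 4) in wildtype cells to 20.8 ± 3.83 CPM (SD, n = 3) after its own loss, and Ep400 from 159 ± 3.91 CPM to 58.6 ± 3.47 CPM in the Ep400 ko clones. Neural crest line markers (10 genes such as Prrx1, Twist1 and Snai2) summed to 2140 to 3603 CPM in the 10 libraries. Most of this sum came from Prrx1, Itgb1 and Cd44, with 810, 616 and 420 CPM in WT/1. Twist1 and Snai2 had 79.4 and 30.8 CPM there. Sox10, which was listed with glial markers, had 0 CPM in every library. Adipocyte markers, which would mark the most lipogenic cell type, summed to 2.64 to 7.84 CPM over 10 genes, and hepatocyte markers to at most 0.198 CPM over 8 genes. Smooth muscle markers summed to 759 CPM in Kat5/1 and to 19 to 95.8 CPM in the other libraries, and the part of this in the results for that clone was not tested.

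In the Kat5 ko clones, 2 of 18 sterol enzymes, 1 of 7 regulators and carriers and 3 of 12 fatty acid enzymes fell, and no gene of the list rose. Of the 37 genes, 33 had a negative and 4 a positive log2-fold change against wildtype cells. At an adjusted p of at most 0.05 (quasi-likelihood test of edgeR, Benjamini-Hochberg method over 13434 genes), 6 fell and none rose, and each of the 6 fell at least 2-fold: Pmvk, Fdps, Lpin1, Acss2, Scd1 and Scd2. Over all genes tested, 0.447% were called lower, 0.365% lower by at least 2-fold and 0.179% higher. All 3 clones lay below all 4 wildtype samples for 23 of the 37 genes, against 10.2% of all genes tested, and all 3 lay above for 0 of the 37, against 9.67%. In bulk RNA, fewer cells that express a gene and less RNA per cell cannot be told apart. At an unadjusted p of at most 0.05 there were 27 genes, all lower (22.3% of all genes in either direction), and DESeq2 called 22, all lower (6.12% of all genes called lower). With all 10 libraries in 1 edgeR fit, none of the 37 was called (0.156% of all genes called lower), the 6 genes having edgeR adjusted p of 0.0755 to 0.119 there.

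The number of calls in this comparison depended on single libraries. It was 0 without WT/1, WT/4, Kat5/2 or Kat5/3, 1 without WT/3, 7 without WT/2 and 18 without Kat5/1. The share of all genes called in these fits is not given, so these counts show only how far the calls moved. The medians moved far less: the median log2-fold change was -1.04 for the sterol enzymes (range over left-out libraries -1.16 to -0.91), -0.64 for the regulators and carriers (-0.73 to -0.58) and -0.55 for the fatty acid enzymes (-0.61 to -0.48), beside a median of 3.24e-05 over all genes tested.

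**Figure D1:**
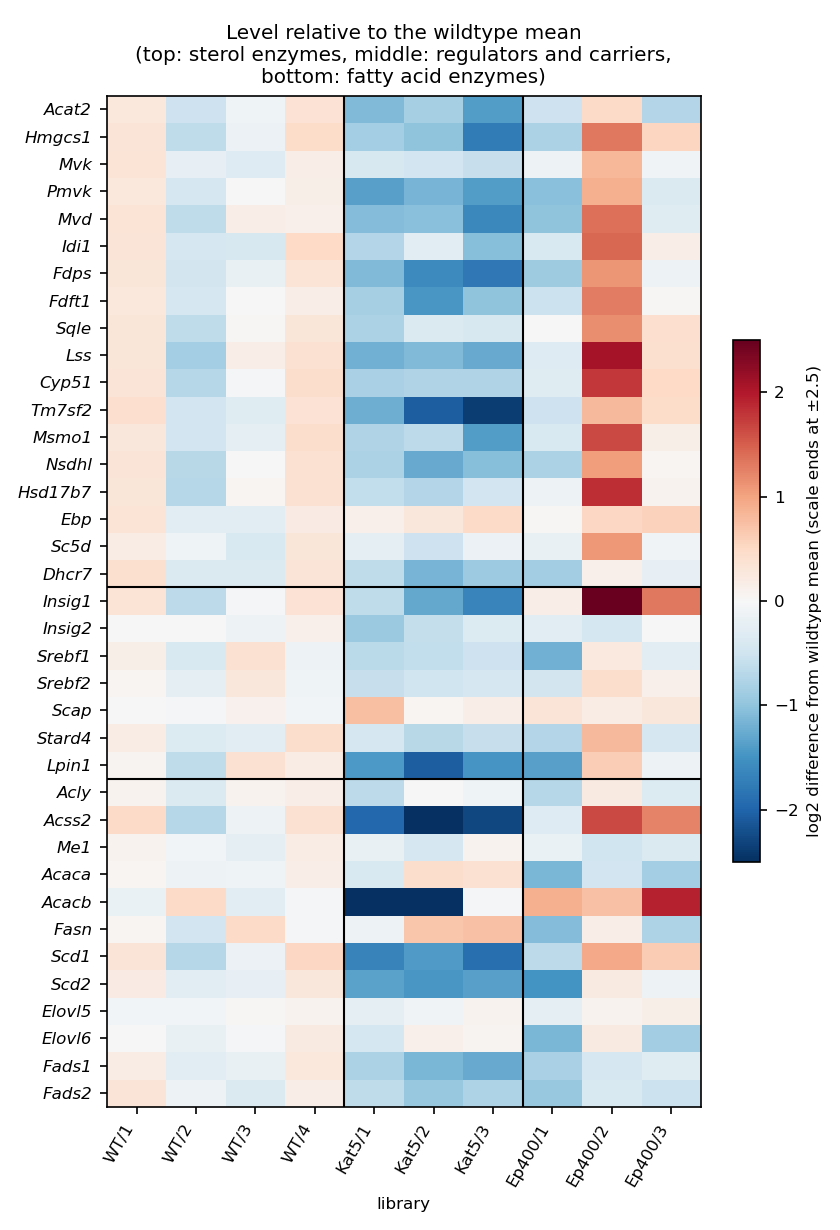
Heat map of the 37 genes (rows, grouped as sterol enzymes, regulators and carriers, and fatty acid enzymes) in the 10 libraries (columns), coloured by the log2 difference in level from the wildtype mean, with the scale ending at 2.5 in either direction. The Kat5 columns are blue for most sterol genes and for Acss2, Scd1, Scd2, Fads1 and Fads2, and the Ep400/2 column is red for 17 of 18 sterol enzymes by the measure of lying above the highest wildtype sample. The share of all genes above that sample in Ep400/2 is not given.

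Among the regulators, the SREBP genes themselves had lower levels in every clone. Srebf2 had 412, 338, 486 and 370.3 CPM in WT/1 to WT/4 and 268, 281 and 297 CPM in Kat5/1 to Kat5/3. Srebf1 had 174, 121, 205 and 144 CPM in wildtype cells and 98.9, 103 and 109.7 CPM in the clones. For both genes every clone lay below every wildtype sample, yet neither passed the test (Srebf2 log2-fold change -0.54 ± 0.16 (SE), edgeR adjusted p = 0.107, Srebf1 -0.66 ± 0.19, edgeR adjusted p = 0.105).

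Insig1, the anchor of the SREBP precursors in the endoplasmic reticulum, had 123, 61.2, 92.7 and 123 CPM in wildtype cells and 62.1, 39.7 and 30.8 CPM in the Kat5 ko clones. Kat5/1 overlapped the lowest wildtype sample WT/2, and the log2-fold change of -1.20 ± 0.32 (SE) missed the threshold (edgeR adjusted p = 0.0931). Insig2, which does the same work but is not driven by SREBP in the same way, had 52.7, 52.4, 48.4 and 58.0 CPM against 27.6, 34.7 and 41.5 CPM, without overlap (log2-fold change -0.64 ± 0.17 (SE), edgeR adjusted p = 0.0890). Scap was the only regulator with a positive value: it had 97.2, 94.4, 105 and 92.8 CPM in wildtype cells and 164, 101 and 109 CPM in the clones, with Kat5/1 far above the others.

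Lpin1, a phosphatidate phosphatase and coregulator, was the only regulator or carrier called. Its levels were 69.0, 42.2, 86.2 and 74.9 CPM in wildtype cells and 24.3, 15.8 and 23.7 CPM in the Kat5 ko clones. The groups did not overlap, and the log2-fold change was -1.71 ± 0.27 (SE, edgeR adjusted p = 0.0450). Stard4, a sterol carrier, had a log2-fold change of -0.63 ± 0.22 (SE) and was not called.

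Of the 18 sterol enzymes, 17 had a negative log2-fold change, 16 had an unadjusted p of at most 0.05, and 13 had all Kat5 ko clones below all wildtype samples. Fdps, the farnesyl pyrophosphate synthase at chr3:89093588-89101959, had 451, 266, 319.6 and 466 CPM in wildtype cells and 169, 122 and 105 CPM in the clones. Its highest clone lay below its lowest wildtype sample (log2-fold change -1.54 ± 0.26 (SE), edgeR adjusted p = 0.0493). Scaled by library size only it was not called (-1.58, edgeR adjusted p = 0.0543). Pmvk, a mevalonate pathway kinase on the same chromosome at chr3:89454541-89469013, had 80.1, 50.3, 68.0 and 74.2 CPM against 26.3, 30.1 and 25.4 CPM. The clones were close to each other and all lay below WT/2, the lowest wildtype sample (log2-fold change -1.35 ± 0.19 (SE), edgeR adjusted p = 0.0322).

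The sterol enzyme with the largest log2-fold change in size was Tm7sf2, a sterol C14 reductase, although it was not called. It had 25.99, 13.9, 15.9 and 25.2 CPM in wildtype cells and 8.38, 4.61 and 3.72 CPM in the Kat5 ko clones (log2-fold change -1.89 ± 0.37 (SE), edgeR adjusted p = 0.0648). Lss, the lanosterol synthase, had 188, 84.9, 171 and 199 CPM against 66.6, 71.0 and 64.0 CPM, again without overlap. Its log2-fold change was -1.29 ± 0.28 (SE, edgeR adjusted p = 0.0696). Cyp51, the lanosterol demethylase, had 298, 145, 235 and 324 CPM against 136, 143 and 142 CPM, so that WT/2 lay just above the clones and the other wildtype samples lay well above.

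Ebp, the sterol isomerase, was the single sterol enzyme with a positive value (log2-fold change 0.24 ± 0.20 (SE)), with 23.98 to 37.2 CPM in wildtype cells and 31.97 to 40.4 CPM in the clones. Among the other sterol enzymes, log2-fold changes ran from -1.30 for Mvd, the mevalonate diphosphate decarboxylase, to -0.35 for Sc5d, the lathosterol oxidase. Hmgcs1, which makes HMG-CoA and was chosen after its values were seen, had 189.7 to 401 CPM in wildtype cells and 87.4 to 162 CPM in the clones (-1.24 ± 0.31 (SE)).

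**Figure D2:**
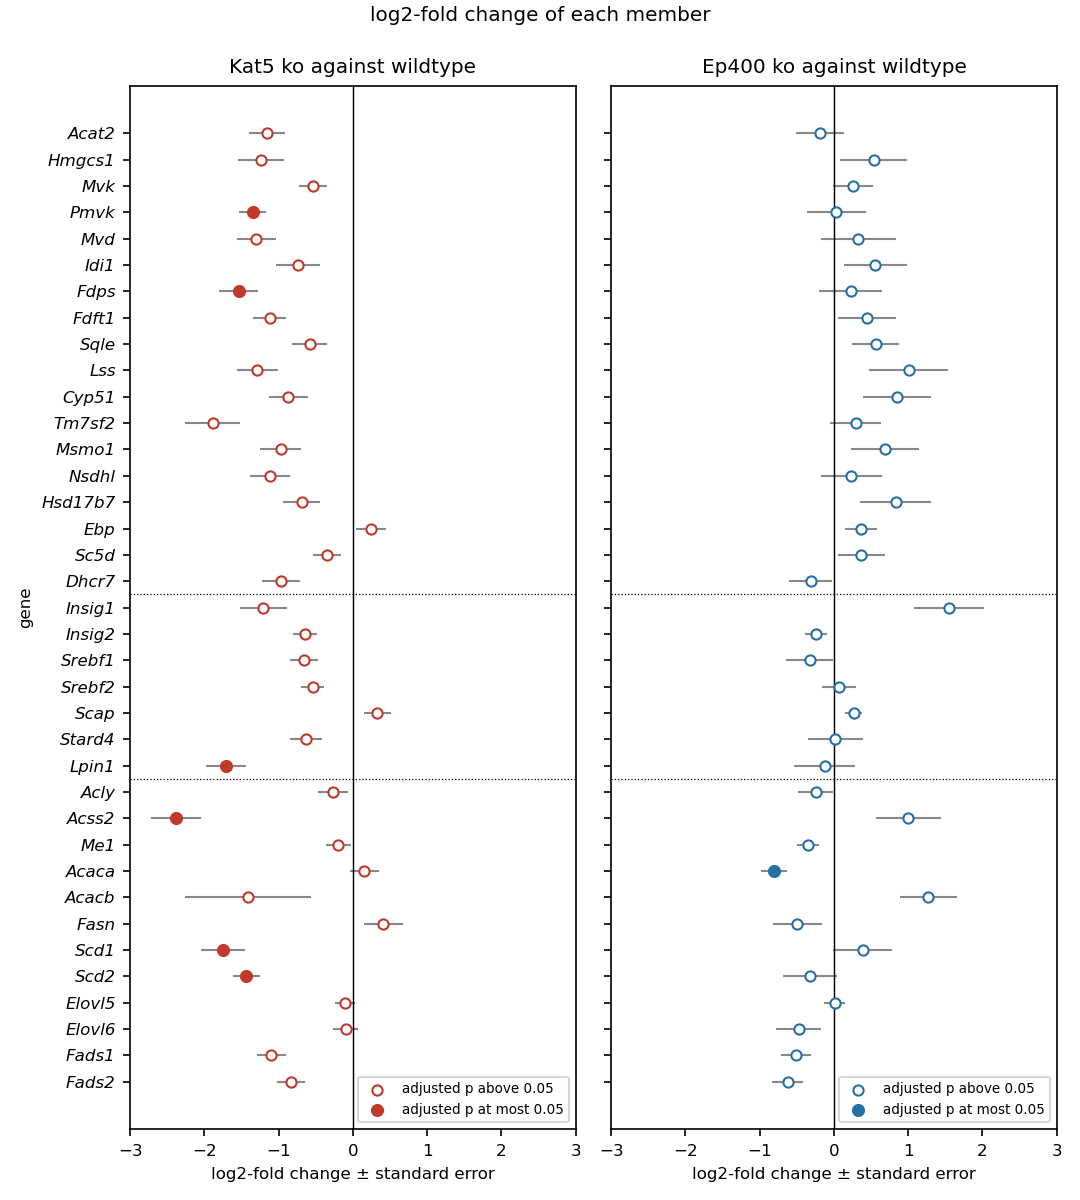
The log2-fold change (horizontal axis) of each of the 37 genes against wildtype cells, with bars of 1 standard error, for the Kat5 ko clones (left) and the Ep400 ko clones (right), filled symbols marking an edgeR adjusted p of at most 0.05. On the left 33 of 37 symbols lie below 0 and 6 are filled, and on the right 24 lie above 0 and only Acaca is filled.

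The fatty acid branch was split in the Kat5 ko clones. Acss2, which makes acetyl-CoA from acetate (chr2:155517948-155585724), had 27.97, 12.2, 18.5 and 26.1 CPM in wildtype cells and 5.10, 3.26 and 4.12 CPM in the clones. Every clone lay well below WT/2, the lowest wildtype sample, and the log2-fold change of -2.38 ± 0.34 (SE) was the largest of the 37 (edgeR adjusted p = 0.0342). Scd1, the delta-9 desaturase that makes oleate, had 537, 262, 388 and 614 CPM against 135, 161 and 116 CPM. Its paralog Scd2, the most abundant gene of the list, had 2714, 1929, 2032 and 2864 CPM against 929, 860.3 and 913 CPM. Neither desaturase overlapped between the groups (Scd1 log2-fold change -1.75 ± 0.30 (SE), edgeR adjusted p = 0.0493, Scd2 -1.43 ± 0.18, edgeR adjusted p = 0.0224).

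The delta-5 desaturase Fads1 had 366, 264, 283 and 385 CPM in wildtype cells and 185, 145 and 134 CPM in the Kat5 ko clones, and the delta-6 desaturase Fads2 had 172, 126, 107 and 154 CPM against 88.6, 71.0 and 80.6 CPM. Both were without overlap and just missed the threshold (Fads1 log2-fold change -1.10 ± 0.20 (SE), edgeR adjusted p = 0.0560, Fads2 -0.83 ± 0.19, edgeR adjusted p = 0.0748). Fads1, Fads2, Scd1, Scd2 and Tm7sf2 all lie on chromosome 19, whose genes had a median log2 difference from the wildtype mean of -0.079, -0.12 and -0.29 in Kat5/1, Kat5/2 and Kat5/3. With chromosome medians removed (an alternative chosen after seeing the data), Pmvk, Fdps, Acss2 and Scd2 were called and Scd1 and Lpin1 were not, with log2-fold changes close to those given above (Scd1 -1.56, edgeR adjusted p = 0.0550, Lpin1 -1.61, edgeR adjusted p = 0.0607).

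None of the genes that build the carbon chain was called in this comparison. Fasn, the fatty acid synthase, also chosen after its values were seen, had 337 to 656 CPM in wildtype cells and 433, 768 and 783 CPM in the clones, of which Kat5/2 and Kat5/3 lay above all wildtype samples (log2-fold change 0.41 ± 0.27 (SE), edgeR adjusted p = 0.393). Acaca, the acetyl-CoA carboxylase that supplies malonyl-CoA to it, had 139, 123, 125 and 149.9 CPM against 103, 182 and 174 CPM. Here Kat5/1 lay below and the other clones above the wildtype range (log2-fold change 0.16 ± 0.20 (SE), edgeR adjusted p = 0.684). Neither elongase was called: Elovl5 had 58.7, 58.3, 62.7 and 65.2 CPM against 51.6, 57.8 and 65.1 CPM, and Elovl6 had 143, 126, 140.1 and 168 CPM against 106, 156 and 151 CPM. Acly and Me1, which supply acetyl-CoA and NADPH, had log2-fold changes of -0.27 ± 0.20 and -0.19 ± 0.17 (SE). Acacb, the mitochondrial carboxylase, was near the detection limit with 1.98, 3.12, 1.85 and 2.16 CPM in wildtype cells and 0.331, 0.0989 and 2.16 CPM in the clones (3 to 98 counts), so that Kat5/3 was inside the wildtype range and the others far below it.

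**Figure D3:**
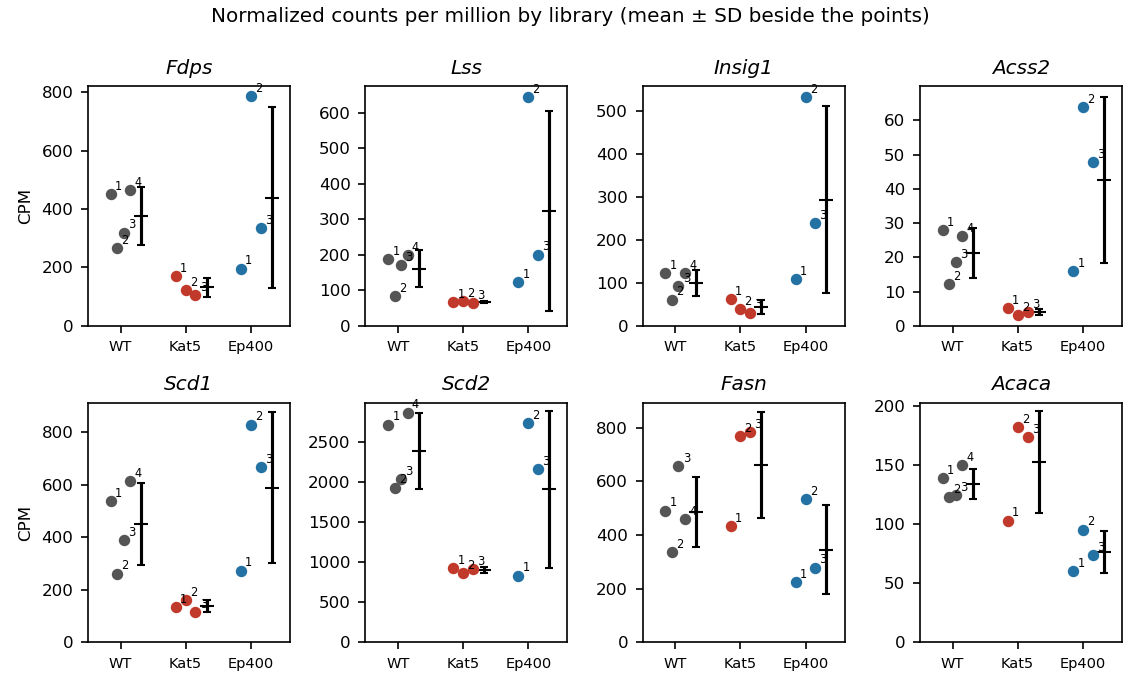
Level in CPM (vertical axis, starting at 0) of 8 genes in each of the 10 libraries, points numbered by replicate or clone, with the mean and SD of each group in black. The Kat5 points lie below all wildtype points for Fdps, Lss, Acss2, Scd1 and Scd2 but not for Fasn and Acaca, and Ep400/2 lies at the top of its group in all 8 panels.

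In the Ep400 ko clones the same genes showed no common direction over the whole list. The log2-fold change was positive for 16 of 18 sterol enzymes and 4 of 7 regulators and carriers, and negative for 8 of 12 fatty acid enzymes. Against wildtype cells 13 of 37 had a negative and 24 a positive log2-fold change, and edgeR's quasi-likelihood test (adjusted over 13836 genes) called 1, Acaca, which fell. Over all genes tested 5.72% were called lower. There were 7 genes at an unadjusted p of at most 0.05, against 32.2% of all genes, and DESeq2 called 4 (Acaca, Fads2, Insig1 and Acacb), against 22.6% of all genes. The 3 clones were all lower than the lowest wildtype sample for Acaca, Fads1 and Fads2 (14.1% of all genes) and all higher than the highest for Scap and Acacb (16.1% of all genes). The median log2-fold change was 0.37 for the sterol enzymes, 0.015 for the regulators and carriers and -0.34 for the fatty acid enzymes, with 0.043 for all genes tested.

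The Ep400 ko clones differed widely from each other in these genes. Ep400/2 lay above the highest wildtype sample for 17 of 18 sterol enzymes and for 26 of the 37 genes, Ep400/3 for 6 and 12, and Ep400/1 for 0 and 2. Within the group Ep400/2 was the highest for 17 of 18 sterol enzymes and Ep400/1 the lowest for 17 of 18. For single clones, the shares of all genes outside the wildtype range or in this order are not given. These counts therefore describe only the listed genes. Over all genes, the median absolute log2 difference from the wildtype mean was 0.37, 0.42 and 0.55 in Ep400/1 to Ep400/3. The ratio of Ep400/2 to Ep400/1 had a median of 3.55 over the sterol enzymes (1.41 to 5.25), of 2.73 over the regulators and carriers (0.897 to 4.90) and of 1.74 over the fatty acid enzymes (0.797 to 3.96). The median SD of log2 levels over the sterol enzymes was 0.932 among the Ep400 ko clones, 0.431 among the wildtype samples and 0.250 among the Kat5 ko clones, where all genes had 0.356, 0.243 and 0.362. Without Ep400/2 the median log2-fold change of the sterol enzymes turned to -0.17, and without Ep400/1 it was 0.65. Ep400/2 was the clone described as having in-frame deletions in most alleles, and its Ep400 transcript level, 61.4 CPM, was close to the 54.7 and 59.7 CPM of the other clones. The part of the allele type in the levels of the sterol genes was not tested.

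Insig1 reached the highest level relative to wildtype cells, at 533% of their mean in Ep400/2. It had 109, 532 and 239 CPM in Ep400/1 to Ep400/3, so that Ep400/1 was inside the wildtype range of 61.2 to 123 CPM and the others were above it (log2-fold change 1.55 ± 0.47 (SE), edgeR adjusted p = 0.0625, DESeq2 adjusted p = 0.00726). Insig2 had 43.1, 38.7 and 52.2 CPM, with its lowest value in the clone where Insig1 was highest. Srebf1 had 68.4, 186 and 130.3 CPM and Srebf2 290.3, 540.2 and 436 CPM, both lowest in Ep400/1 and highest in Ep400/2. Scap varied little, at 121, 111 and 119 CPM, and lay above the 92.8 to 105 CPM of wildtype cells in all 3 clones (log2-fold change 0.26 ± 0.12 (SE), edgeR adjusted p = 0.155). Lpin1 had 25.7, 101 and 60.3 CPM, which spans the wildtype range on both sides.

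Most sterol enzymes followed the order of Insig1 among the Ep400 ko clones. Lss had 123, 645 and 201 CPM, Cyp51 195, 820.3 and 338 CPM, and Fdps 196, 787 and 335 CPM in Ep400/1 to Ep400/3. In each of the 3 genes Ep400/2 lay far above the highest wildtype sample. Pmvk had 32.5, 125 and 52.3 CPM, and Tm7sf2 13.6, 34.2 and 26.9 CPM. For Pmvk Ep400/1 lay just above Kat5/2, the highest of the Kat5 ko clones. None of the 18 was called by edgeR or by DESeq2, and 0 had an unadjusted p of at most 0.05 by edgeR (largest log2-fold change 1.01 ± 0.53 (SE) for Lss).

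Of the fatty acid enzymes, Acaca at chr11:84129672-84401651 had 60.2, 95.4 and 74.1 CPM in the Ep400 ko clones against 123 to 149.9 CPM in wildtype cells. All clones were below all wildtype samples, and the log2-fold change was -0.81 ± 0.18 (SE, edgeR adjusted p = 0.0218). The call was lost without WT/1 and without WT/4 (edgeR adjusted p up to 0.0650), and also with chromosome medians removed (log2-fold change -0.60, edgeR adjusted p = 0.0632). Chromosome 11, which also holds Fasn, Acly and Srebf1, had a median log2 difference of -0.18, -0.20 and -0.25 in Ep400/1 to Ep400/3.

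Scd1 had 273, 828 and 665 CPM and Scd2 832, 2738 and 2159 CPM in Ep400/1 to Ep400/3. Both desaturases were lowest in Ep400/1 and highest in Ep400/2, as most sterol enzymes were, and neither gene was called. Acss2 had 16.1, 63.8 and 47.7 CPM, with Ep400/2 and Ep400/3 above the wildtype maximum of 27.97 CPM (log2-fold change 1.00 ± 0.44 (SE), edgeR adjusted p = 0.157). Acacb had 4.17, 3.75 and 8.59 CPM, all above the wildtype maximum of 3.12 CPM (log2-fold change 1.27 ± 0.38 (SE), edgeR adjusted p = 0.0602).

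Fads1 had 183, 239.8 and 261 CPM and Fads2 71.1, 106 and 95.0 CPM in the Ep400 ko clones. For these desaturases Ep400/2 was not raised, and all clones stayed below the wildtype range (Fads1 log2-fold change -0.51 ± 0.20 (SE), edgeR adjusted p = 0.114, Fads2 -0.62 ± 0.21, edgeR adjusted p = 0.0783). With chromosome medians removed both were called (edgeR adjusted p = 0.0464 and 0.0300), the median of chromosome 19 being 0.28, 0.26 and 0.17 in the 3 clones. Elovl5 had 52.2, 65.1 and 67.6 CPM and Elovl6 65.2, 167 and 78.9 CPM, and for Elovl6 Ep400/1 and Ep400/3 lay below the wildtype samples while Ep400/2 lay among them.

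The ko groups were also compared with each other, a comparison that does not use the wildtype samples. Of 37 genes 31 were higher and 6 lower in the Ep400 ko clones, and edgeR's quasi-likelihood test called 4 of them higher (over all genes 4.22% were called higher): Tm7sf2 (log2-fold change 2.13 ± 0.46 (SE), edgeR adjusted p = 0.0416), Insig1 (2.704 ± 0.59, edgeR adjusted p = 0.0428), Acss2 (3.33 ± 0.51, edgeR adjusted p = 0.0271) and Scd1 (2.08 ± 0.41, edgeR adjusted p = 0.0355). For all 4 genes every Ep400 ko clone lay above every Kat5 ko clone, but the genes were picked by a test of these same libraries, so this adds no support. The count was 0 without Ep400/2, Ep400/3, Kat5/2 or Kat5/3, 5 without Kat5/1 and 8 without Ep400/1. For these fits the share of all genes called is not given. DESeq2 called 20, against 22.6% of all genes. Acaca and Fasn had negative values (-1.02 ± 0.28 and -0.96 ± 0.39 (SE)) and were not called by edgeR. Acaca was called lower by DESeq2 (adjusted p = 0.0138) and by edgeR with all 10 libraries in 1 fit (adjusted p = 0.0156) or with no filter on low counts (adjusted p = 0.0496). The median was 1.40 for the sterol enzymes, 0.56 for the regulators and carriers and 0.11 for the fatty acid enzymes, with 0.0063 for all genes tested.

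To set the sterol branch against the fatty acid branch, log2 levels relative to the wildtype mean were averaged over the genes of each branch in each library. The sterol level was 0.31, -0.50, -0.13 and 0.32 in WT/1 to WT/4, -0.80, -0.90 and -1.05 in the Kat5 ko clones and -0.49, 1.16 and 0.081 in the Ep400 ko clones. The fatty acid level was 0.13, -0.24, -0.086 and 0.20 in WT/1 to WT/4, -0.91, -0.89 and -0.53 in the Kat5 ko clones and -0.65, 0.21 and -0.017 in the Ep400 ko clones. By these means the Kat5 ko clones lay below all wildtype samples in both branches, whereas the Ep400 ko clones lay on both sides of 0. Medians over the 12 fatty acid genes were 0.093, -0.23, -0.13 and 0.18 in WT/1 to WT/4, -0.64, -0.69 and -0.077 in Kat5/1 to Kat5/3 and -0.76, 0.20 and -0.32 in Ep400/1 to Ep400/3. By the median Kat5/3 lay inside the wildtype range, its mean being lower through Acss2, Scd1, Scd2 and Fads1 (-2.28, -1.89, -1.36 and -1.25 on the log2 scale).

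The difference between the branches, sterol minus fatty acid, was 0.18, -0.26, -0.043 and 0.12 in WT/1 to WT/4, 0.12, -0.0049 and -0.52 in the Kat5 ko clones and 0.16, 0.95 and 0.098 in the Ep400 ko clones. Group means ± SD were -0.14 ± 0.34 (n = 3) for the Kat5 and 0.40 ± 0.47 (n = 3) for the Ep400 ko clones, with an SD of 0.20 among the 4 wildtype samples, and the ranges overlapped. By these means Ep400/2 lay above and Kat5/3 below the wildtype range. Without Ep400/2 the Ep400 mean was 0.13, and without Kat5/3 the Kat5 mean was 0.055. The overlap depended on how the branch level was formed, in alternatives chosen after seeing the data. With branch medians the difference was 0.22, -0.25, 0.0089 and 0.18 in WT/1 to WT/4, -0.17, -0.22 and -0.99 in the Kat5 ko clones and 0.31, 0.94 and 0.39 in the Ep400 ko clones. With the rare transcript Acacb left out of the fatty acid mean it was at most 0.15 in wildtype cells and 0.303, 1.00 and 0.27 in the Ep400 ko clones. In both alternatives all 3 Ep400 ko clones lay above all 4 wildtype samples. The Kat5 ko clones overlapped the wildtype range in both. No test was made of the difference, since it is a score over the listed genes.

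**Figure D4:**
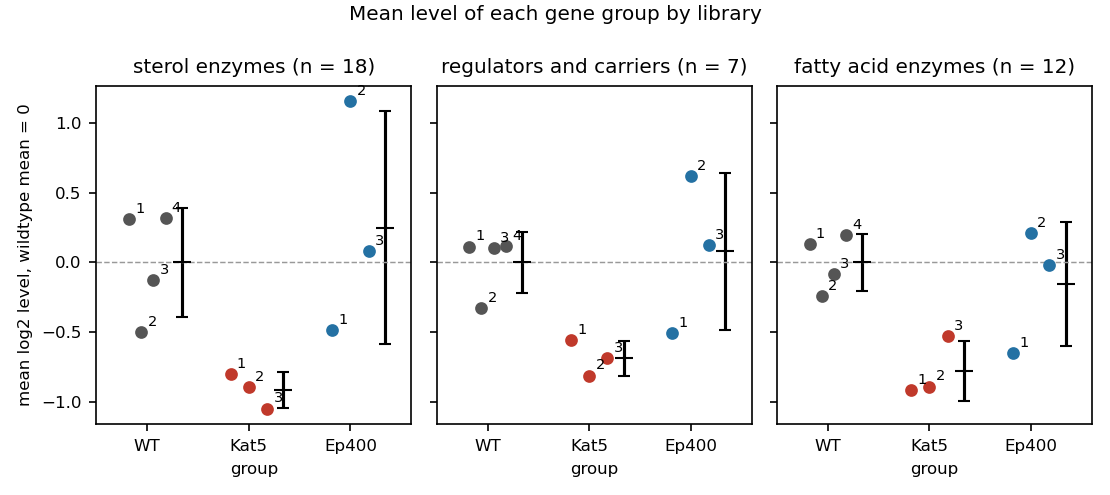
Mean log2 level of the genes of each group relative to the wildtype mean (vertical axis) for every library, points numbered by replicate or clone, with the mean and SD of the group beside them. Kat5 points lie below the wildtype points for all 3 gene groups, and the Ep400 points are spread from -0.49 to 1.16 for the sterol enzymes.

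The wildtype samples were not uniform in these genes. WT/2 was the lowest of the 4 for 30 of the 37 genes and for 16 of 18 sterol enzymes, and WT/4 was the highest for 22. The share of all genes with such an order is not given, so these counts describe only the listed genes. The summed level of the 37 genes was 9217, 6121, 7736 and 9549.9 CPM in WT/1 to WT/4, 4455, 4853 and 4766 CPM in the Kat5 ko clones and 4582, 13255 and 7983 CPM in the Ep400 ko clones. By this sum Ep400/1 fell in the range of the Kat5 ko clones and Ep400/2 lay above every other library. The sum of the sterol enzymes alone was 1732 CPM in Ep400/1, inside the wildtype range of 1659 to 3060 CPM. That was above the Kat5 ko clones, at 1155 to 1336.5 CPM. Divided by the length of the union of exons, the wildtype level was highest for Scd2 (436 ± 86.5 CPM per kilobase, SD, n = 4), followed by Scd1 (92.0 ± 32.03), Fdps (89.2 ± 23.3) and Acly (87.9 ± 13.4), and the last 3 did not differ beyond their spread.

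Other genes of the pathways differed by list in the Kat5 comparison. A negative log2-fold change was found for 18 of 20 fatty acid oxidation genes, 11 of 12 uptake, efflux and storage genes and 4 of 5 further sterol enzymes. It was found for 4 of 7 SREBP processing genes and 11 of 19 further fatty acid synthesis genes. Of the 5 further sterol enzymes tested in the Kat5 comparison edgeR called 0 (1 at an unadjusted p of at most 0.05, and 0 by DESeq2), and of 12 uptake, efflux and storage genes it called 1 (5 at an unadjusted p of at most 0.05, and 5 by DESeq2, which called 11.0% of all genes). The gene called by edgeR was Vldlr, a lipoprotein receptor, with 58.1, 41.4, 81.3 and 62.5 CPM in wildtype cells, 13.3, 17.9 and 14.7 CPM in the Kat5 ko clones and 129.7, 149.6 and 118 CPM in the Ep400 ko clones. The 3 groups did not overlap, and Vldlr fell with Kat5 loss (log2-fold change -2.02 ± 0.24 (SE), edgeR adjusted p = 0.0207) and rose with Ep400 loss (1.12 ± 0.22, edgeR adjusted p = 0.0142). Both comparisons share the wildtype samples. None of 7 SREBP processing genes, 19 further fatty acid synthesis genes and 20 fatty acid oxidation genes was called in the Kat5 comparison by edgeR. At an unadjusted p of at most 0.05 there were 1, 6 and 10, against 22.3% of all genes, and DESeq2 called 0, 2 and 5. The 10 oxidation genes were all lower, the 6 synthesis genes were 3 lower and 3 higher, and the SREBP processing gene was higher.

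In the Ep400 comparison, edgeR called 2 of 12 uptake, efflux and storage genes (Vldlr and Npc2), 1 of 7 SREBP processing genes, 2 of 19 further fatty acid synthesis genes and 6 of 20 oxidation genes. Over all genes tested it called 8.0% higher and 5.72% lower. In the first 3 lists 4 of these calls were higher and 1 lower, and of the oxidation genes 2 were higher and 4 lower. Npc2, a lysosomal sterol carrier, rose (0.70 ± 0.20 (SE)), as did Agpat2 and Lpin2 of glycerolipid synthesis (0.94 ± 0.22 and 0.53 ± 0.14). Mbtps2, the protease of the second SREBP cleavage, fell (-0.75 ± 0.14 (SE), edgeR adjusted p = 0.0122). Of the oxidation genes, Acads, Echs1 and Eci1 fell (-1.07 ± 0.14, -1.01 ± 0.12 and -0.69 ± 0.15 (SE)), and Cpt1a, the entry step of mitochondrial oxidation, rose (0.78 ± 0.18).

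Between the ko groups, Vldlr (3.10 ± 0.21 (SE)), Mylip (2.64 ± 0.51) and Abca1 (2.26 ± 0.53) were called higher in the Ep400 ko clones, as was Acsl1, a fatty acyl-CoA synthetase (1.34 ± 0.31), and Mbtps2 was called lower (-1.08 ± 0.20). Over all genes 2.83% were called lower. Mylip marks lipoprotein receptors for degradation and Abca1 exports cholesterol.

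A few genes share exon sequence with neighbours, which limits how surely their counts belong to them. Tm7sf2 shares 532 exon bases with Vps51 on the same strand. Fdft1, Lss, Cyp51, Srebf1, Scap, Acss2 and Me1 overlap genes on the opposite strand. The library kit keeps strand, but the counting settings are not given in the sources used here. Scd1 and Scd2 are close paralogs, and how reads that fit both were counted is likewise not given.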

How the data were processed

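The 37 genes, their grouping and the other pathway lists were chosen with earlier results of these data known. A gene of the pathway lists is not reported here and was left out of their counts. The authors prepared stranded poly-A libraries and deposited a table of unnormalized counts, 1 whole number for each gene and library. The submitters' processing notes name bcl2fastq 2.20, STAR 2.7.3, DESeq2 1.36.0, R 4.2.1 and mm10. The counting program and annotation are not given in the sources used here, and the normalized tables were not used. Each comparison was fitted on its own libraries in R 4.3.3 with edgeR 4.0.16 (filterByExpr, TMM, robust glmQLFit and glmQLFTest, Benjamini-Hochberg over all genes tested), and a call needed an adjusted p of at most 0.05. The 2-fold calls also needed a log2-fold change of at least 1 in size and a group mean over 100 normalized counts. The standard errors (SE) of log2-fold changes were derived from the edgeR test. Each is the size of the change divided by the square root of its F value. The script was checked on simulated data. CPM values use TMM factors over all 10 libraries, and log2 levels a prior count of 2. Gene positions and exon lengths come from GENCODE M21 (GRCm38). DESeq2 1.42.0 and limma 3.58.1 served as alternatives. Per-library values are given for genes called against wildtype, for the 2 largest changes per group, for the SREBP regulators and for paralog pairs. No libraries of a group were duplicates by a chi-square test of their counts (28.1 to 258 for each degree of freedom). Nothing ties the clones or wildtype samples to separate days or cultures beyond the labels, so p-values measure the spread between these samples. Both ko comparisons against wildtype share the wildtype samples.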

Additional observations from a re-analysis of the deposited data

Results flagged for a closer look

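Among 23 sets of 4 wildtype values examined (genes and gene group levels), 1 had a sample far from the others: in the mean level of the regulators and carriers, WT/2 lay lowest and its gap to the next sample was 0.968 of the whole range, above Dixon's 95% critical value. Chance gives such a result in about 1 set of 20.

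The Kat5 and Ep400 effects differed, by edgeR's test of the Ep400 ko against the Kat5 ko clones, for Tm7sf2 (log2 difference 2.13), Insig1 (2.704), Acss2 (3.33) and Scd1 (2.08), all higher in the Ep400 ko clones. None of these was called without Ep400/2, Ep400/3, Kat5/2 or Kat5/3. For Acacb every Kat5 ko clone lay below and every Ep400 ko clone above the wildtype mean (log2 difference 2.63), a pattern set apart by direction and not called by that test (edgeR adjusted p = 0.128), in a gene with 3 to 345 counts per library.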

How the results depend on the processing

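Against the 6 genes called in the Kat5 comparison (6 with a 2-fold change), DESeq2 called 22 (15 with a 2-fold change), the fit with no filter on low counts 12 (12), and the fit of all 10 libraries together 0 (0). Against 1 gene called in the Ep400 comparison, with 0 at 2-fold, DESeq2 called 4 (2). Between the ko groups, where 4 were called (4), DESeq2 called 20 (20) and the fit of all 10 libraries together 19 (18). Removing chromosome medians, an alternative chosen after seeing the data, gave 2 calls for Ep400 against wildtype and 2 (2) between the ko groups, and a regulator median of -0.70 for Kat5. Scaled by library size only, Fdps lost its call in the Kat5 comparison (edgeR adjusted p = 0.0543). The cause of these shifts was not tested. Where a count of calls in this section has no share of all genes beside it, it shows only how far the calls moved.

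The replicate numbers in the labels do not pair the samples: deviations of same-numbered libraries correlated at -0.0957 to 0.223 and not every pair passed 0.1. With the replicate number as a block, 0 genes were called in each of the 3 comparisons (0 at 2-fold), and the sterol median for Kat5 was -0.89.

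Leaving out single libraries gave 0 to 18 calls for Kat5 (0 to 16 at 2-fold), 0 to 3 for Ep400 (0 to 2) and 0 to 8 between the ko groups (0 to 8). The medians ranged over -1.16 to -0.91 (sterol), -0.61 to -0.48 (fatty acid) and -0.73 to -0.58 (regulators) for Kat5, -0.17 to 0.65, -0.56 to -0.14 and -0.17 to 0.24 for Ep400, and 0.65 to 1.73, 0.017 to 0.23 and 0.33 to 0.76 between the ko groups. The branch difference ranged over -0.26 to 0.055 for Kat5 and 0.13 to 0.56 for Ep400. With branch medians it was -0.46 and 0.55, and with Acacb left out -0.26 and 0.52, both chosen after seeing the data.

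None of the genes whose direction turned was called in that comparison. In the Ep400 comparison these were Pmvk (-0.19 with limma, -0.0024 with no filter, -0.14 with the replicate block) and Elovl5 (-0.012 with DESeq2, -0.0027 with limma, -0.011 with DESeq2 size factors, -0.032 with no filter, -0.11 with chromosome medians removed). Between the ko groups they were Scap (0.0080 with library size only) and, with chromosome medians removed, Elovl5 (-0.0074) and Fads2 (-0.27). With a library left out, direction turned for Elovl6 in the Kat5 comparison (-0.19 to 0.059), in the Ep400 comparison for Scd2 (-0.70 to 0.035), Pmvk (-0.71 to 0.37), Lpin1 (-0.69 to 0.24), Fdps (-0.53 to 0.57), Tm7sf2 (-0.028 to 0.59), Lss (-0.015 to 1.39), Srebf2 (-0.17 to 0.28) and Elovl5 (-0.067 to 0.11), and between the ko groups for Srebf1 (-0.098 to 0.58), Scap (-0.26 to 0.13) and Elovl5 (-0.019 to 0.16).

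With 3 clones a group, depth limited only Acacb, at 3 to 345 counts per library.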
